A study of Mus musculus with 9 samples.

Results

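Fibroblasts labelled as primary cells of the mouse spinal meninges were compared between the segments labelled L and C, with 3 RNA sequencing libraries of each, 6 of the 9 libraries in the series. The libraries were chosen by their titles alone, and 12553 genes were compared. The series concerns how fibrotic scar tissue forms at different segments of the injured spinal cord. Its remaining segment, T, is given beside L and C for some of the genes. All groups were freshly collected cells with no further treatment according to the labels, and the labels spell out none of the letters C, T and L and give no strain, age or sex. The labels do not say whether the 3 replicates of a segment came from separate animals or cultures, so the spread behind each p-value is that between libraries and may be technical.

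The meninges are the layered connective tissue around the brain and spinal cord. The dura is the tough outer layer, the arachnoid is a barrier layer sealed by tight junctions, and the pia lies on the neural tissue and follows its vessels. Meningeal fibroblasts secrete collagen, basement membrane and retinoic acid, signal to the neural tissue beside them, and contribute to scars after injury. Fibroblasts of different body levels keep positional differences in transcription factor expression.

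The cells expressed fibroblast genes in both segments. The collagen gene Col1a1 measured 1176 ± 62.02 TPM in C and 1164 ± 27.4 TPM in L (SD, n = 3), where TPM is a level per transcript, scaled for transcript length and library size. The intermediate filament gene Vim measured 5154 ± 35.7 TPM in C and 4061 ± 70.6 TPM in L. By the edgeR test described below, 10 of 24 pan-fibroblast markers were higher in L, 9 were lower and 5 were not called. Among all 12553 tested genes, 24.4% were higher and 25.2% were lower. Pdgfra, a receptor commonly used to mark fibroblasts and, like Col1a1, chosen after its values were seen, was low, at 3.54 ± 0.513 TPM in C, 23.3 ± 1.38 TPM in T and 7.09 ± 0.731 TPM in L. Library totals ran from 15652558 to 25204310 estimated counts. The first principal component held 69.2% of the variance and set C apart from both T and L, and the second held 15.8% and set T apart from L.

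L and C differed across much of the transcriptome. At an adjusted p under 0.05 (edgeR quasi-likelihood test with Benjamini-Hochberg adjustment), 6230 genes were called, or 49.6% of those tested, with 3064 higher in L (24.4%) and 3166 lower in L (25.2%). At least 2-fold, 699 genes were higher in L (5.57%) and 870 were lower (6.93%). At least 8-fold, 63 were higher and 110 were lower. The median gene moved by 0.01 on the log2 scale, with quartiles of -0.26 and 0.28. The higher share of the calls was 49.2%, against 62.5% in limma on log2(TPM + 1) and 62.4% on log2(TPM + 0.1), where the median gene moved by 0.10 and 0.11. Since nearly 1 gene in 2 was called, the count called in any gene group is read against these shares. Below, "higher" and "lower" describe genes that passed this test, and fold changes come from its fit.

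**Figure D1:**
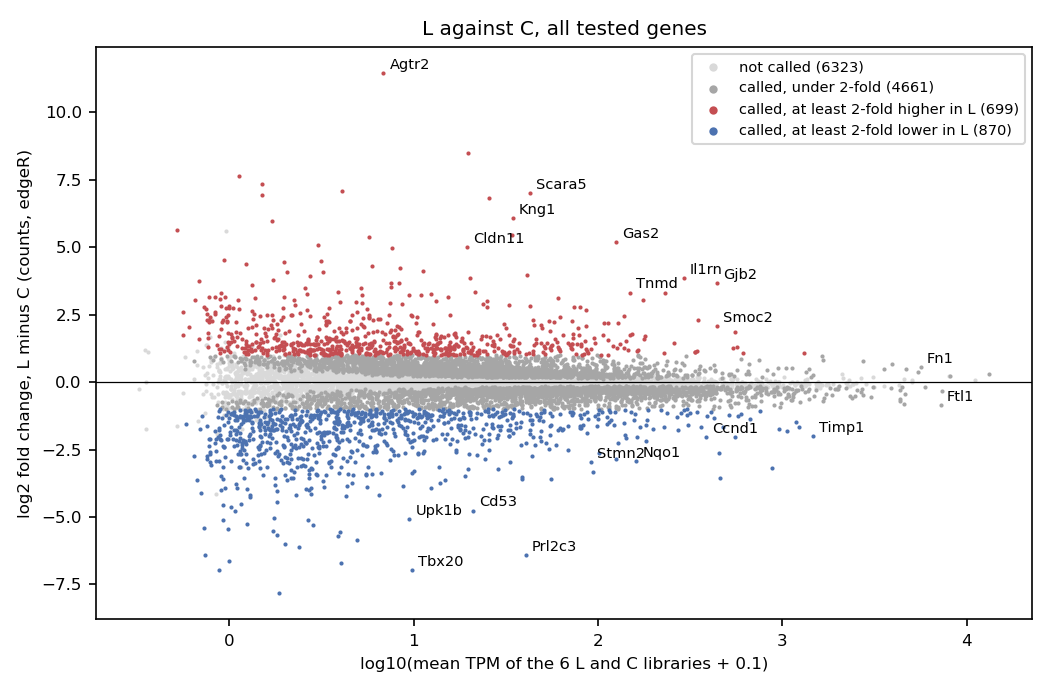
Log2 fold change of L over C from the edgeR fit against log10 of the mean TPM of the 6 L and C libraries plus 0.1, with 1 point per tested gene and colour for called genes of at least 2-fold change (699 higher and 870 lower in L). The fitted value of Agtr2, which had 0 counts in C, is not a bound on its fold.

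The genes with the greatest increase included a vasoactive peptide system and a set of cell-surface and junction proteins. Agtr2, the type 2 angiotensin receptor, was listed at 0 in all 3 C libraries and at 14.04, 16.1 and 10.4 TPM in L. Against a floor of 3 counts over the C libraries it was at least 383-fold higher in L. T was near L for Agtr2, at 11.4 ± 2.50 TPM (L against T adjusted p = 0.399 by edgeR). Agtr1a, the type 1 receptor, was also higher, at 0.397 ± 0.228 TPM in C and 4.700 ± 0.714 TPM in L. Kng1, which encodes kininogen, the precursor of bradykinin, measured 1.08, 1.36 and 0.772 TPM in C and 66.7, 70.8 and 65.8 TPM in L, a 67.6-fold difference (log2 change 6.08, SE 0.11, adjusted p = 2.68e-13). Its near copy Kng2 was 44.2-fold higher. Reads of these 2 genes may be split between them, so the separate values are uncertain. T lay above L for both, at 115 ± 2.39 TPM of Kng1 and 85.3 ± 1.49 TPM of Kng2. The bradykinin receptor gene Bdkrb2 went the other way, from 6.97 ± 0.104 TPM in C to 0.707 ± 0.147 TPM in L, 10.5-fold lower. The peptidase gene Anpep, whose product trims small peptides, was 6.97-fold higher. In the wider group of prostaglandin, kinin and angiotensin genes, 11 of 25 were higher, 7 lower and 7 not called. Both cyclooxygenase genes were among the lower ones, Ptgs1 3.95-fold and Ptgs2 2.66-fold, and these were chosen after their values were seen.

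Scara5, a scavenger receptor that takes up ferritin, measured 0.601, 0.592 and 0.642 TPM in C and 82.5, 90.8 and 81.2 TPM in L (log2 change 6.99, SE 0.09, adjusted p = 1.32e-14). It was 128-fold higher in L than in C, and T lay higher still, at 195 ± 6.54 TPM. Gas2, which encodes a cytoskeleton-binding protein, measured 5.49, 6.75 and 5.41 TPM in C and 251, 257 and 222 TPM in L, a 36.6-fold difference. The serine protease genes Prss42 and Prss35 were also higher. Prss42 had 2 counts over the C libraries and 266 over the L libraries, a ratio of 163 with a 95% interval of 44.8 to 1355 that covers counting error only. Prss35 was 17.2-fold higher, and T lay above L, at 96.2 ± 6.59 TPM against 21.1 ± 1.76 TPM. Ano5, of the anoctamin family of membrane proteins, was 18.7-fold higher, and the receptor phosphatase gene Ptprq 16.8-fold. For Ano5, T lay between C and L, at 9.57 ± 2.61 TPM. Il1rn, which encodes the antagonist of the interleukin-1 receptor, measured 35.9, 37.6 and 33.4 TPM in C and 537, 549 and 555 TPM in L, 14.5-fold higher (log2 change 3.85, SE 0.07, adjusted p = 2.11e-13). T lay above L for Il1rn, at 1265 ± 76.3 TPM. No C library overlapped an L library for any of these genes, which the rule that named them required. Of all 12553 tested genes, 7357 did not overlap between L and C.

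The genes with the greatest decrease included transcription factors. Tbx20, a T-box factor known for heart development, measured 18.5, 18.5 and 20.8 TPM in C and 0.289, 0.051 and 0.094 TPM in L, 127-fold lower in L (log2 change -6.98, SE 0.22, adjusted p = 3.51e-11) and 230.2-fold without L replicate 1. Foxj1, the regulator of motile cilia, was 15.01-fold lower. Genes known from epithelia lay on both sides. Upk1b, a uroplakin of the urinary tract lining, measured 19.1, 18.4 and 17.1 TPM in C and 0.616, 0.571 and 0.518 TPM in L. Ivl, the cornified envelope protein involucrin, had 427 counts over the C libraries and 3 over the L libraries, a ratio of 116 with a 95% counting interval of 39.4 to 564. Lce1h, of the late cornified envelope family, had 147 and 2 counts, a ratio of 59.9 with an interval of 16.3 to 499. In the other direction, the uroplakin gene Upk3b was 6.75-fold higher in L and the keratin gene Krt15 6.83-fold.

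Several lower genes encode secreted or metal-binding proteins. Prl2c3, of the placental prolactin family, measured 78.6, 77.7 and 83.7 TPM in C and 0.878, 0.541 and 1.38 TPM in L, 85.4-fold lower. Its near-identical family copies make the assignment of its reads uncertain, as for Lce1h and for Gsta1 and Gsta3. Serpinb2, an inhibitor of plasminogen activators, was 47.5-fold lower, and the metallothionein gene Mt3 18.05-fold, or 29.1-fold without L replicate 3. Nrn1, which encodes the neurite-promoting protein neuritin, was 15.1-fold lower, and the thyroid hormone-binding protein gene Crym 39.6-fold. Cd53, a tetraspanin of leukocytes, measured 37.9, 41.4 and 41.2 TPM in C and 1.26, 1.95 and 1.55 TPM in L, 27.2-fold lower. Trbc2, a T cell receptor constant region, had 99 counts over the C libraries and 2 over the L libraries, both in L replicate 3, a ratio of 40.3 with an interval of 10.9 to 338. The T libraries also lay well below C for these genes, with means of 0.334 TPM for Tbx20, 0.787 for Upk1b and 3.05 for Cd53.

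**Figure D2:**
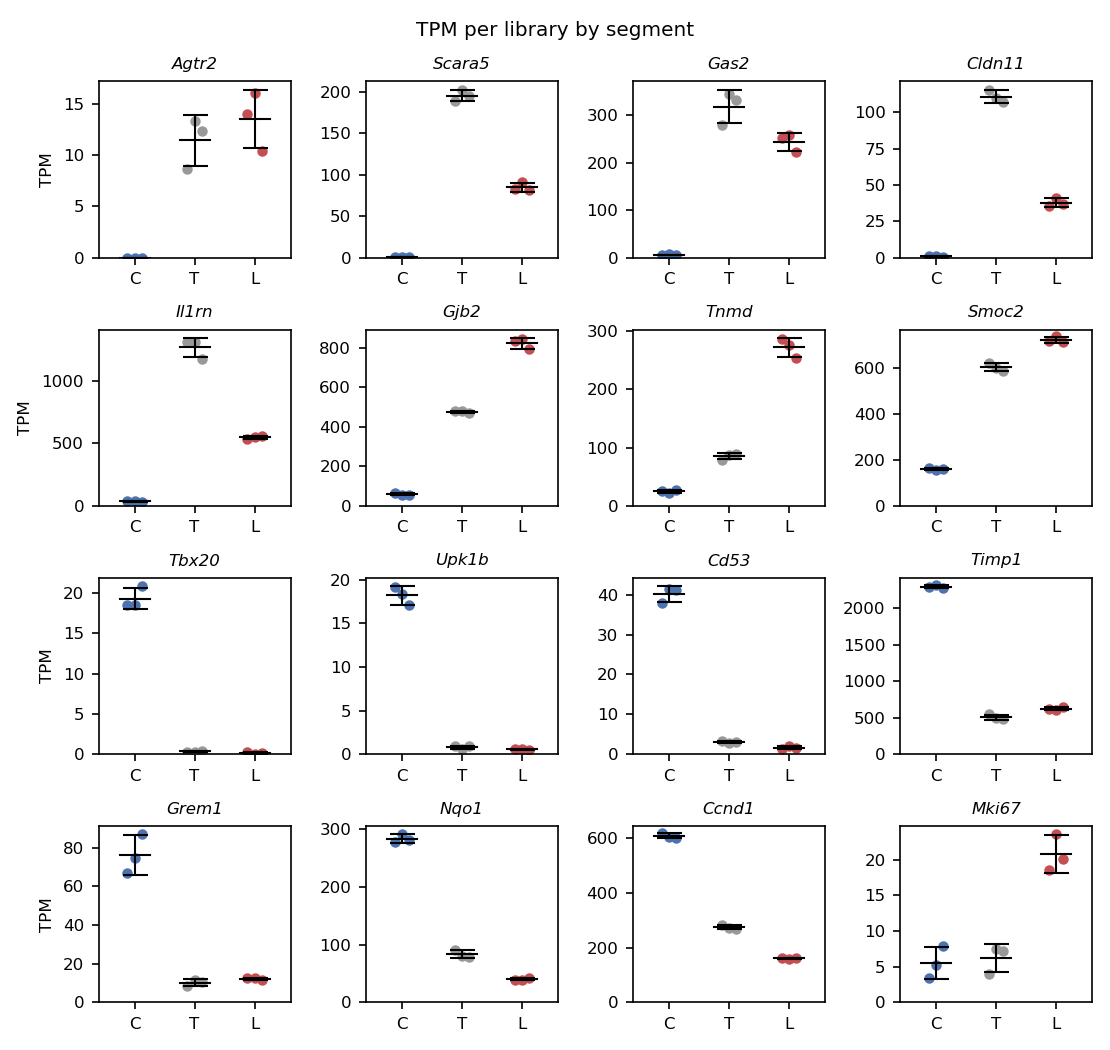
TPM in each library of the segments C, T and L for 16 genes, on linear axes from 0, with points for libraries, a bar for the mean and error bars of 1 SD (n = 3). The C and L points do not overlap in any of the 16 panels, as is the case for 7357 of all 12553 tested genes.

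Abundant transcripts changed in both directions. Fn1, the matrix protein fibronectin, measured 4449, 4338 and 4304 TPM in C and 6831, 7150.0 and 6741 TPM in L, 1.46-fold higher (log2 change 0.55, SE 0.05, adjusted p = 1.09e-06). Col3a1, a fibrillar collagen, was 1.95-fold higher, the adhesion regulator gene Thbs1 1.57-fold, and the collagen and elastin crosslinking enzyme gene Lox 1.71-fold. Igfbp2, which binds insulin-like growth factors, was 1.398-fold higher, the actin monomer-binding gene Tmsb4x 1.41-fold, and the scaffold gene Akap12 1.77-fold. Timp1, a metalloprotease inhibitor, measured 2287, 2323 and 2284 TPM in C and 613, 609.8 and 645 TPM in L (log2 change -1.99, SE 0.07, adjusted p = 6.93e-11). Its relative Timp3 was 3.52-fold lower. The serine protease gene Prss23 was 3.13-fold lower, and the calcification inhibitor gene Mgp 2.83-fold. The ferritin light chain gene Ftl1 was 1.81-fold lower, the galectin gene Lgals1 1.78-fold, S100a6 1.63-fold, Tagln 1.55-fold and Vim 1.36-fold.

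Dura and arachnoid markers were mostly higher in L, and pia and perivascular markers were mostly lower. Of 14 tested dura markers, 10 were higher and 2 lower, with a median log2 change of 1.06. Gja1, the gap junction protein connexin 43, measured 123, 102 and 104 TPM in C and 599, 646 and 532 TPM in L, 4.95-fold higher. The matricellular genes Ccn3 and Smoc2 were 8.28-fold and 4.18-fold higher. Of 14 tested arachnoid markers, 11 were higher and 3 lower, with a median of 1.48. Cldn11, which encodes the claudin that seals the arachnoid layer, measured 1.402, 1.14 and 0.772 TPM in C and 35.4, 41.2 and 36.8 TPM in L, 32.3-fold higher (log2 change 5.01, SE 0.15, adjusted p = 1.72e-11). Slc4a10, a bicarbonate transporter, was 19.9-fold higher and the ligand gene Wnt6 14.5-fold. T lay above L for Cldn11, Slc4a10 and Wnt6, at 111 ± 4.37, 117 ± 25.7 and 60.1 ± 7.68 TPM. Slc4a10 measured 11.1 ± 2.16 TPM in L. The lower arachnoid members were Aldh1a2, Spp1 and Tagln, which together outweigh the others in level. The summed level of this list was 5537 to 5896 TPM in C and 3866 to 4226 TPM in L.

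Of 19 tested pia and perivascular markers, 14 were lower and 2 higher, with a median of -1.09. Aldh1a1, a retinoic acid-synthesizing enzyme, measured 75.7, 66.6 and 69.2 TPM in C and 6.98, 6.26 and 7.62 TPM in L, 11.5-fold lower. Spp1, which encodes the matrix protein osteopontin, was 9.98-fold lower, Col15a1 of the basement membrane zone 8.94-fold, and Vtn, which encodes vitronectin, 7.13-fold. Some genes stand in more than one of these lists, such as Spp1 and Dpp4. In bulk libraries, fewer cells of a kind and less RNA per cell cannot be told apart.

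Gjb2, which encodes the gap junction protein connexin 26, measured 67.8, 54.7 and 57.8 TPM in C and 835, 845 and 793 TPM in L, 12.8-fold higher, and T lay between them at 476 ± 5.63 TPM. Its partner Gjb6 was 33.5-fold higher. In contrast, the desmosomal gene Pkp1 was 8.79-fold lower. Over junction and keratin genes, 8 of 20 tested were higher and 8 lower.

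**Figure D3:**
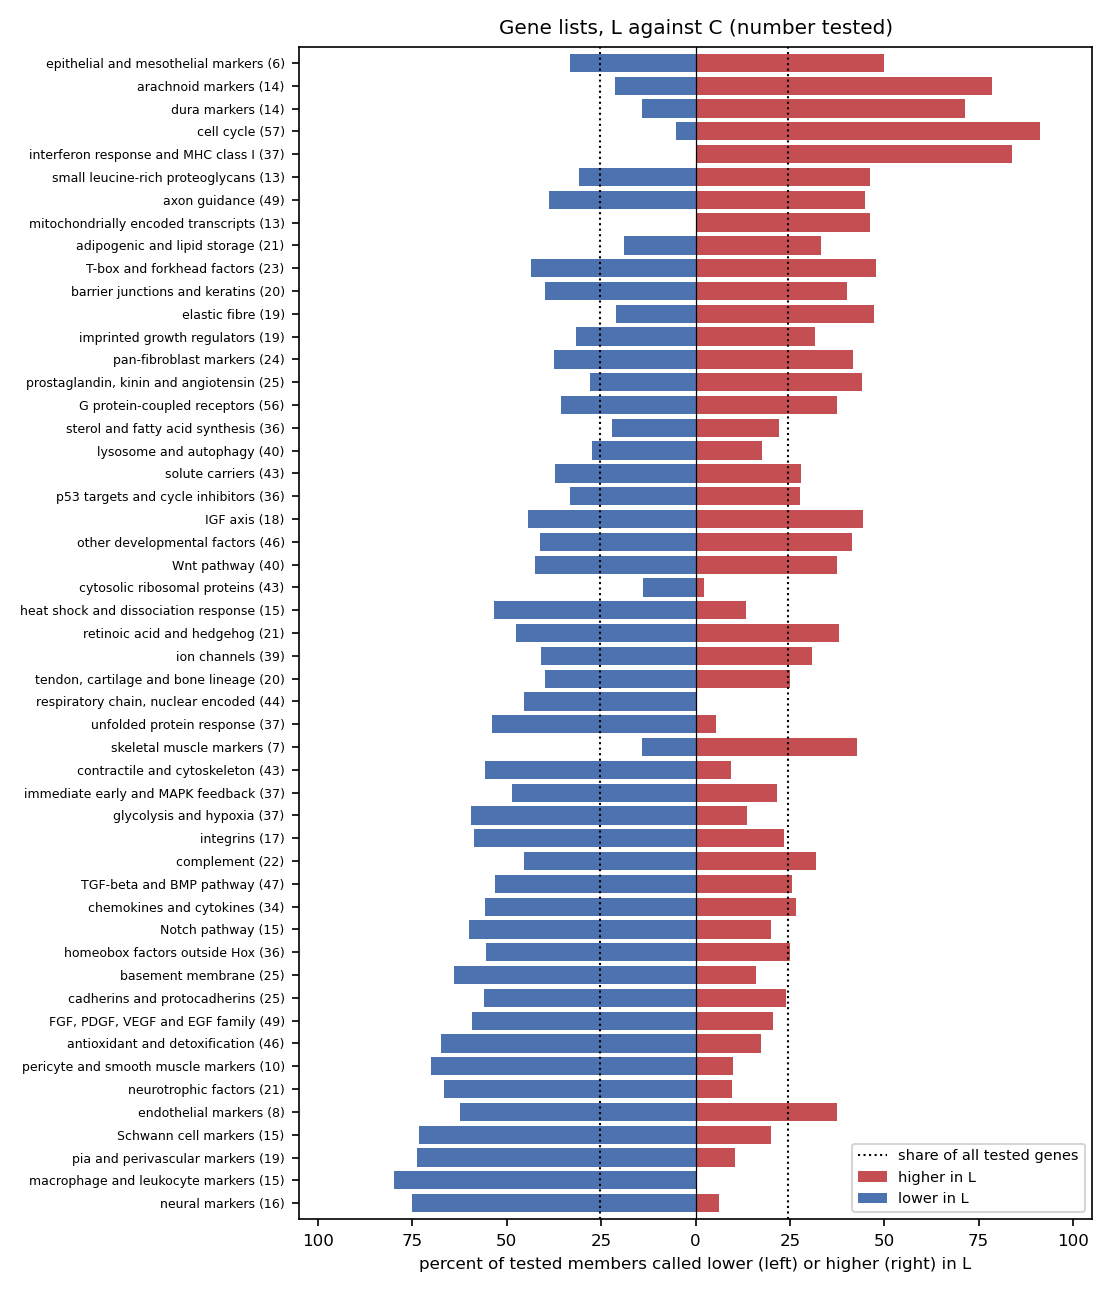
Percent of the tested members of each list called higher (right) or lower (left) in L, for lists with at least 5 tested members in order of their median change, with dotted lines at the shares of all tested genes (24.4% and 25.2%). Cell cycle (52 of 57) and interferon genes (31 of 37) stand far to the right, and neural markers (12 of 16) and antioxidant genes (31 of 46) to the left.

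Transcription factors outside the Hox clusters changed in both directions. Among 36 tested homeobox factors, 9 were higher and 20 lower. Irx3, which patterns the neural tube and limb, measured 4.23, 4.41 and 4.76 TPM in C and 0.849, 0.337 and 0.758 TPM in L, 7.21-fold lower. T was close to C for Irx3, at 4.74, 3.34 and 4.07 TPM, and the test of L against T gave adjusted p = 1.11e-05. Irx1 was 7.32-fold lower, 11.96-fold without L replicate 1, and Pax6, known from eye and neural patterning, 7.04-fold. Nkx6-2, a ventral neural tube factor, had 62 counts over the C libraries and 3 over the L libraries, all in L replicate 2, a ratio of 16.8 with a 95% counting interval of 5.500 to 83.9.

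Of 23 T-box and forkhead factors, 11 were higher and 10 lower. Foxs1, a factor of perivascular cells, measured 38.6, 44.5 and 44.2 TPM in C and 5.23, 7.31 and 6.36 TPM in L, 7.24-fold lower. Foxc1 and Foxc2, needed for meningeal development, were 2.504-fold and 2.34-fold higher, and were chosen after their values were seen. Of 46 other developmental factors, 19 were higher and 19 lower. Sox8 was 11.7-fold lower, Sox11 7.999-fold, Heyl 10.9-fold and Gata2 6.05-fold. Neural markers were lower too, at 821 to 844 TPM in C and 346 to 363 TPM in L in sum, and their part in these factors was not tested. All 5 measured Zic factors, which act in meningeal development, were higher, as chosen after their values were seen, with Zic1 2.38-fold and Zic2 2.21-fold.

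Growth factor genes of the FGF, PDGF, VEGF and EGF families were mostly lower in L. Of 49 tested members, 29 were lower and 10 higher, with a median log2 change of -0.64. Flt1, a receptor for VEGF, measured 17.2, 15.7 and 15.3 TPM in C and 1.35, 1.18 and 1.02 TPM in L, 14.6-fold lower. Kdr, another VEGF receptor gene, was 8.43-fold lower and the ligand gene Pdgfb 6.37-fold. Fgfbp1, which releases FGF from the matrix, measured 0, 0.407 and 0.078 TPM in C and 1.005, 1.06 and 1.31 TPM in L, 6.62-fold higher, and 19.7-fold without C replicate 2. Neurotrophic genes followed the same direction, with 14 of 21 lower and 2 higher, at a median of -0.93. The cytokine gene Lif was 4.45-fold lower and Ptn, which encodes the growth factor pleiotrophin, 4.43-fold. Schwann cell markers, which include the receptor gene Ngfr of this list, summed to 440.2 to 442 TPM in C and 337 to 349.7 TPM in L, and their part was not tested. Ntf3 had 70 counts over the C libraries and 2 over the L libraries, both in L replicate 3, a ratio of 28.5 with a 95% counting interval of 7.604 to 240.1.

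Of 47 TGF-beta and BMP pathway genes, 25 were lower, 12 higher and 10 not called. Among ligands, Gdf6 was 69.1-fold lower, Bmp2 11.7-fold lower, and Bmp4, chosen after its values were seen, 4.57-fold higher. Grem1, a secreted BMP inhibitor, measured 66.6, 74.4 and 87.1 TPM in C and 12.4, 12.5 and 11.4 TPM in L, 6.76-fold lower. Of 40 Wnt pathway genes, 15 were higher and 17 lower. The ligand genes diverged, with Wnt6 higher as above and Wnt2b 4.73-fold lower. Lef1, a transcription factor of the pathway, was 8.87-fold lower, and Apcdd1, an inhibitor, 4.58-fold lower.

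Of 15 Notch pathway genes, 9 were lower and 3 higher, with a median log2 change of -0.42. The broader Notch signaling pathway of the deposited annotation leaned the other way, with 17 of 52 members higher and 11 lower at a median of 0.06. Hey1, a Notch target, measured 6.400, 5.76 and 6.48 TPM in C, 6.12, 5.17 and 7.87 TPM in T and 2.77, 2.36 and 2.07 TPM in L, so that L alone lay low. It was 2.79-fold lower in L than in C and 2.63-fold lower than in T (adjusted p = 1.26e-04). The non-canonical ligand gene Dlk1 was 4.23-fold lower. Its relative Dlk2 was 2.42-fold lower by edgeR (adjusted p = 0.025), 3.71-fold without L replicate 3, but not called without C replicate 1, L replicate 1 or L replicate 2 (adjusted p = 0.071, 0.093 and 0.085), with no filter on low values, or in DESeq2. Of 18 genes of the insulin-like growth factor axis, 8 were higher and 8 lower. Igfbp3 was 3.84-fold lower and Igfbp5 2.28-fold. Stc2, a glycoprotein that restrains release of the growth factor, was 4.53-fold lower. Htra1, a secreted protease, measured 50.6, 50.00 and 46.6 TPM in C, 73.3, 68.6 and 65.4 TPM in T and 16.6, 15.1 and 19.99 TPM in L, again low in L alone (L against T adjusted p = 3.65e-08).

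Retinoic acid and hedgehog genes were higher in 8 and lower in 10 of 21. Rarb, a retinoic acid receptor, was 10.8-fold lower, and the binding protein gene Crabp1 17.7-fold. Rbp4, the retinol carrier, was 22.4-fold higher. The retinoic acid-synthesizing enzyme genes Aldh1a1, Aldh1a2 and Aldh1a3 were lower. Aldh1a1 was lower as above, Aldh1a2 7.26-fold and Aldh1a3 6.502-fold, the last 2 chosen after their values were seen. Other enzyme genes of this synthesis are not given here. Of 49 axon guidance genes, 22 were higher and 19 lower, with a median log2 change of 0.23. The axon guidance process of the deposited annotation leaned lower, with 17 of 81 members higher and 33 lower at a median of -0.17. Sema3d, a secreted semaphorin, measured 4.63, 4.78 and 6.05 TPM in C and 43.9, 50.5 and 40.4 TPM in L, 8.04-fold higher. Epha3, a receptor for ephrins, was 6.98-fold higher. The adhesion genes Nrcam and Chl1 were 6.08-fold and 5.27-fold lower.

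Genes of the interferon response were higher in L. Interferon turns on a set of antiviral genes and class I antigen presentation. Of 37 tested genes, 31 were higher, 0 lower and 6 not called, with a median log2 change of 0.68. No member was lower at an unadjusted p under 0.05 in edgeR, or at an adjusted p under 0.05 in DESeq2 or limma, with 0 in each. Without 1 library at a time, 27 to 32 were higher. Ifit1, which binds viral RNA, measured 2.53, 2.81 and 3.296 TPM in C, 7.004, 9.75 and 9.21 TPM in T and 12.7, 14.8 and 12.04 TPM in L, 4.22-fold higher in L than in C (log2 change 2.08, SE 0.15, adjusted p = 7.53e-08). Gbp2, an interferon-induced GTPase, measured 32.1, 28.5 and 29.4 TPM in C and 87.9, 101 and 80.5 TPM in L, 2.78-fold higher. Its relatives in the Gbp family can share reads with it. Oasl2 was 2.67-fold higher and Ifit3 2.63-fold. The class I genes H2-D1 and B2m, chosen after their values were seen, were not called, at 583 ± 27.7 TPM of B2m in C and 625 ± 41.04 TPM in L.

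The interferon-stimulated response element, searched as GAAANNGAAA on both strands, is the DNA site of this response. It lay in the 300-base RefSeq promoter (250 bases before the start to 50 after it, GRCm38.p6) of 12 of the 29 interferon genes that have one, or 41.4%, against 3.68% of 9779 tested genes. Of the higher members it lay in 11 of 24, and of those not called in 1 of 5. The promoters of Ifit1, with 2 matches, and Gbp2, with 1, are printed because these genes changed most among those with a match. Capitals mark the matches, and a match is a description of the letters, not proof of a working site.
Ifit1 (chr19:34640639-34640938, plus strand): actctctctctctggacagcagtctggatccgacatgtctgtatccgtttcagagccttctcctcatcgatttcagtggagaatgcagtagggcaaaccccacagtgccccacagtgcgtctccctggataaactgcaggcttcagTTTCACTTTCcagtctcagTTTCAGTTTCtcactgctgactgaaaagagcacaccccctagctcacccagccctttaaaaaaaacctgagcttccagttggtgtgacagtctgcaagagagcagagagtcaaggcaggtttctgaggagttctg
Gbp2 (chr3:142620413-142620712, plus strand): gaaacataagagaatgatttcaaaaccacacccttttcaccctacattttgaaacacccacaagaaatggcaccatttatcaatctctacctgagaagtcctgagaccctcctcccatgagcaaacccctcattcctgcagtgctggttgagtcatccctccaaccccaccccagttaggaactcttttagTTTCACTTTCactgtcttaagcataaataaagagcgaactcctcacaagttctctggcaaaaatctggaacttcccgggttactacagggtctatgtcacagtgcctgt

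Cytokine and complement genes went both ways. Of 34 chemokine and cytokine genes, 9 were higher and 19 lower. Il6 was 5.02-fold lower, at 8.68 ± 1.18 TPM in C and 1.75 ± 0.384 TPM in L, and Tnfsf11, which drives osteoclast formation, was 7.13-fold lower, or 12.8-fold without L replicate 2. Il31ra was 5.99-fold lower, and T lay nearer to C, at 0.745 ± 0.689 TPM. Of 22 complement genes, 7 were higher and 10 lower. C4b was 3.62-fold higher and C1rl 4.04-fold, while C1qb and C1qc, made by macrophages, were 3.44-fold and 3.81-fold lower. Macrophage and leukocyte markers summed to 214 to 228 TPM in C and 111 to 118 TPM in L, and their part was not tested.

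Cell cycle genes were higher in L. Of 57 tested, 52 were higher, 3 lower and 2 not called, with a median log2 change of 1.00. Without 1 library at a time, 51 to 52 were higher. Mki67, a marker of dividing cells, measured 3.48, 5.23 and 7.93 TPM in C, 3.96, 7.47 and 7.15 TPM in T and 18.6, 23.7 and 20.1 TPM in L, 3.46-fold higher in L than in C (log2 change 1.79, SE 0.25, adjusted p = 4.34e-05). The kinetochore genes Cenpf and Cenpe were 3.99-fold and 3.63-fold higher. For these 3 genes T lay close to C, and L differed from T, with adjusted p of 1.83e-04, 4.14e-05 and 2.24e-04 by edgeR. Summed over the whole list, T lay between C and L. The sums were 2894 to 2970 TPM in C, 3272 to 3341 TPM in T and 3500 to 3556 TPM in L. The lower members were the G1 regulators Ccnd1, Ccnd2 and Cdk6. Ccnd1, which encodes cyclin D1, measured 619, 604 and 601 TPM in C and 160.2, 158 and 163 TPM in L, 4.08-fold lower (log2 change -2.03, SE 0.06, adjusted p = 1.09e-11). Ccnd2 and Cdk6, chosen after their values were seen, were 1.43-fold and 3.28-fold lower.

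Among p53 targets and cycle inhibitors, 10 of 36 were higher and 12 lower. Cdkn2a, an inhibitor that accumulates in ageing and cultured cells, measured 123, 136 and 119 TPM in C and 54.1, 46.5 and 50.96 TPM in L, 2.61-fold lower. Pmaip1 was 2.24-fold lower and Gadd45a 1.96-fold. Cdkn1c, an imprinted inhibitor, was 2.504-fold higher by edgeR (adjusted p = 0.009), but was not called without L replicate 3 (adjusted p = 0.054).

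The cell cycle homology region, searched as TTTGAA on both strands, is a promoter element of genes expressed late in the cycle. It lay in the RefSeq promoters of 22 of 47 cell cycle genes, or 46.8%, against 14.3% of all 9779. All 22 were among the 44 higher members with a promoter. Only 1 lower member and 2 not called had a promoter, so the matches cannot be set against direction. The promoters of Cenpf, with a single match, and Mki67, with 2, are shown because these genes changed most among those with a match, with the matches in capitals.
Cenpf (chr1:189688037-189688336, minus strand): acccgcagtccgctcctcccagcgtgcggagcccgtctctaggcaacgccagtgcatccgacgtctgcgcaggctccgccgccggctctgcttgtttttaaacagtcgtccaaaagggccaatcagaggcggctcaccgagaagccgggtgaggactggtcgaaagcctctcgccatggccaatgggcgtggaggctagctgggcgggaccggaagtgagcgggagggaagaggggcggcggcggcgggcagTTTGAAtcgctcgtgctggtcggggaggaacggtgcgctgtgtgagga
Mki67 (chr7:135716330-135716629, minus strand): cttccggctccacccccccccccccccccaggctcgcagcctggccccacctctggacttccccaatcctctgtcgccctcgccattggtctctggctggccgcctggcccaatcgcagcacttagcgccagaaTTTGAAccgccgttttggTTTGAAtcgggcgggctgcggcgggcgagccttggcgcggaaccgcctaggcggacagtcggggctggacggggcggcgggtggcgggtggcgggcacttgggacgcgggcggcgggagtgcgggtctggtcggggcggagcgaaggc

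Antioxidant and detoxification genes were mostly lower in L. These enzymes remove peroxides and conjugate reactive compounds, and many answer to the factor Nfe2l2. Of 46 tested, 31 were lower and 8 higher, with a median log2 change of -0.66. Nqo1, a quinone reductase, measured 278, 292 and 280.0 TPM in C, 91.05, 80.8 and 78.7 TPM in T and 38.8, 39.4 and 41.8 TPM in L, 7.601-fold lower in L than in C (log2 change -2.93, SE 0.08, adjusted p = 1.37e-11). The glutathione transferase gene Gsta3 was 14.8-fold lower. Its relative Gsta1 measured 2.58, 3.51 and 3.21 TPM in C and 0, 0 and 0.7 TPM in L and was lower by edgeR with and without L replicate 3 (adjusted p = 4.34e-04 and 1.40e-04), the one L library with counts. Srxn1, which repairs peroxiredoxins and was chosen after its values were seen, was 2.29-fold lower. Nfe2l2 itself, likewise chosen, measured 140.0 ± 1.69 TPM in C and 171 ± 9.23 TPM in L and was higher in L. Cbr2, a carbonyl reductase, went the other way from the group, 6.81-fold higher, from 19.4 ± 2.56 to 141 ± 10.7 TPM.

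The antioxidant response element, searched as TGACNNNGC on both strands, is the site of Nfe2l2. It lay in the promoters of 10 of 40 antioxidant genes, and in those of 16.9% of all 9779. It lay in 7 of 25 lower members, 2 of 8 higher ones and 1 of 7 not called. The promoters of Gsta3 and Srxn1, each with a match, are shown because they changed most among the lower genes with one, with the match in capitals.
Gsta3 (chr1:21240335-21240634, plus strand): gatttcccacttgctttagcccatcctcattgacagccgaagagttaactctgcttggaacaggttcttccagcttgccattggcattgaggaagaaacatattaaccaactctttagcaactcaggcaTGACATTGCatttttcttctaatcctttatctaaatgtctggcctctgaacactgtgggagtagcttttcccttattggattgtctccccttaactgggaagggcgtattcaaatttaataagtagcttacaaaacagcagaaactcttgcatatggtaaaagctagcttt
Srxn1 (chr2:152105274-152105573, plus strand): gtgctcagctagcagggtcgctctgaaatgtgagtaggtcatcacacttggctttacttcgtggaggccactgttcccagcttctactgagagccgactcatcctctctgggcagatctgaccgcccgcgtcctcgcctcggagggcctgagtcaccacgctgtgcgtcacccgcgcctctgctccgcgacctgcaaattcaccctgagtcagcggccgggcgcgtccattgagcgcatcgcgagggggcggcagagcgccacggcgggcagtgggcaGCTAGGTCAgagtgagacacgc

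**Figure D4:**
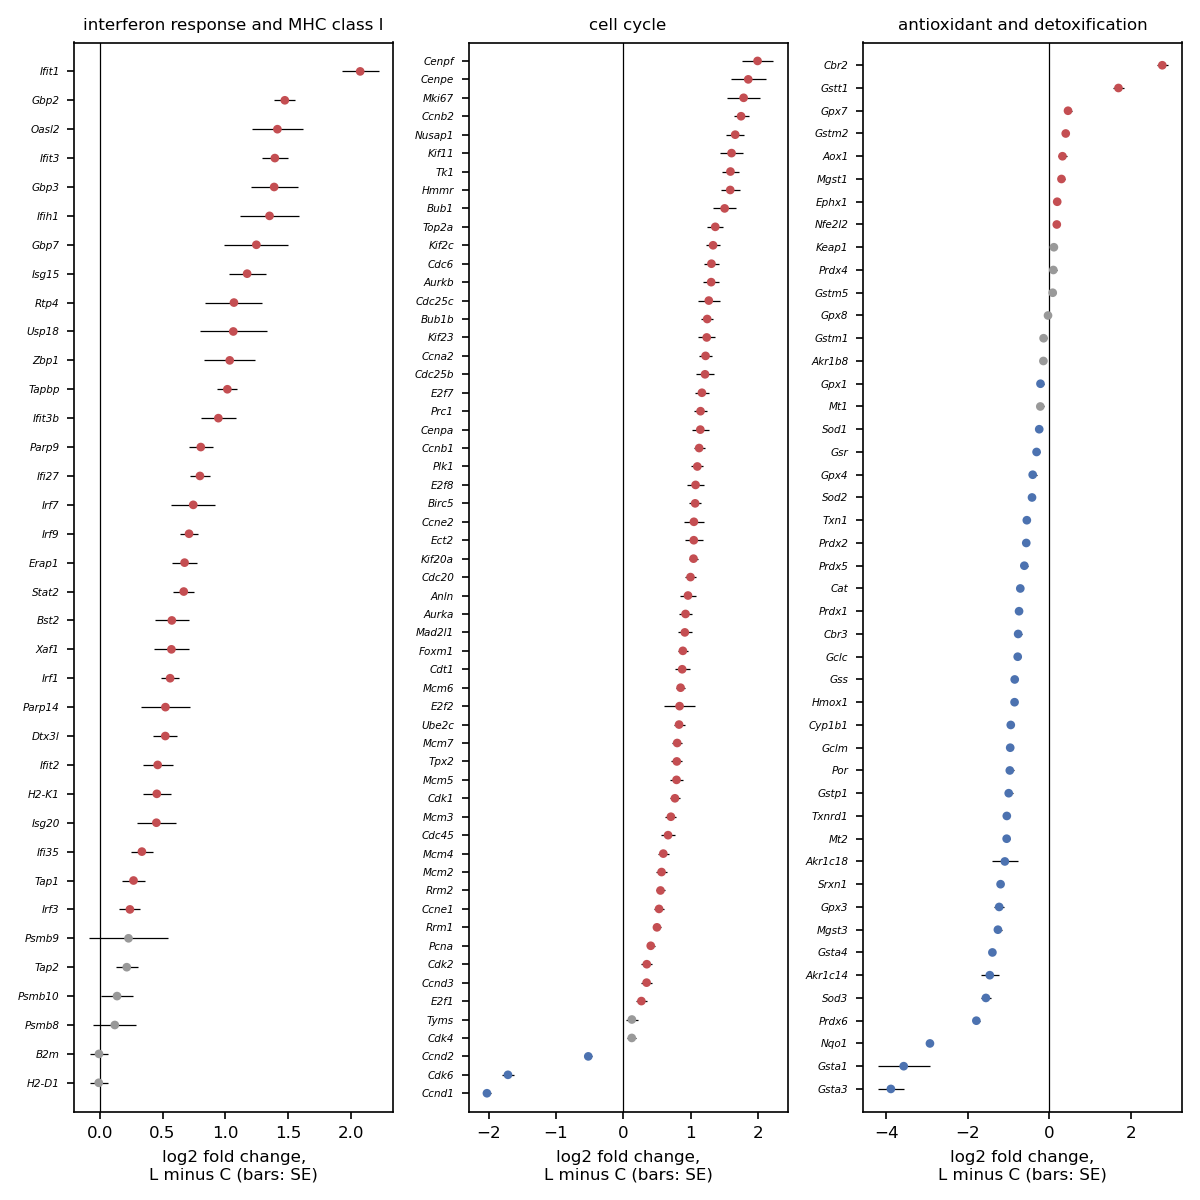
Log2 fold change of L over C with its SE for 36 interferon, 57 cell cycle and 46 antioxidant genes, with red for higher in L, blue for lower in L and grey for not called. None of the interferon genes shown is called lower in L, and Ccnd1, Cdk6 and Ccnd2 are the blue points among the cell cycle genes.

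Other stress and metabolic groups leaned lower. Of 37 glycolysis and hypoxia genes, 22 were lower and 5 higher. Hk2, a hexokinase, was 3.13-fold lower, and Ankrd37, a hypoxia target, 4.69-fold lower, or 7.83-fold without L replicate 3. Egln3, an oxygen-sensing enzyme gene, measured 8.14, 6.66 and 7.49 TPM in C and 57.4, 59.1 and 57.5 TPM in L, 7.25-fold higher, and Ndrg1 was 3.26-fold higher. Of 37 unfolded protein response genes, 20 were lower and 2 higher, and 12 were lower in limma on log2(TPM + 1). The serine synthesis gene Phgdh was 3.17-fold lower, Asns, which makes asparagine, 2.39-fold, Trib3 2.23-fold and Vldlr 2.22-fold.

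Nuclear-encoded respiratory chain genes were lower in 20 and higher in none of 44 by edgeR, with 0 higher at an unadjusted p under 0.05, 0 in DESeq2 and 2 in limma on log2(TPM + 1). The number lower was 11 without C replicate 1, 10 without C replicate 2 and 9 without L replicate 1 or 2. None reached a 2-fold change, and the most affected was Cycs, which encodes cytochrome c, 1.59-fold lower. Mitochondrially encoded transcripts were higher in 6 of 13, in 1 without C replicate 1 or 2, in 3 without T replicate 3 or L replicate 1, in 2 without L replicate 2 or 3, in 8 without T replicate 1 and in 9 without C replicate 3. mt-Nd6 was 1.45-fold higher by edgeR, but was not called without C replicate 1, C replicate 2 or L replicate 2 (adjusted p = 0.1, 0.064 and 0.12), in DESeq2, or in limma on log2(TPM + 0.1) or with median centring. Their summed level was 43433 to 56519.5 TPM in C and 60993 to 64756 TPM in L. Ribosomal protein genes were lower in 6 and higher in 1 of 43, and the number lower ran from 1 without C replicate 2, L replicate 1 or L replicate 2 to 16 without T replicate 1. Rps18 was the most affected, 1.29-fold lower by edgeR, but was not called without C replicate 2, L replicate 1 or L replicate 2 (adjusted p = 0.17, 0.099 and 0.082), with library totals, or in limma on log2(TPM + 1) or log2(TPM + 0.1). Heat shock and dissociation genes, which can report handling of tissue, were lower in 8 and higher in 2 of 15, with Cryab 1.72-fold lower and Hspa1a 1.68-fold higher.

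Sterol and fatty acid synthesis genes were higher in 8 and lower in 8 of 36, with 5 lower without C replicate 1, C replicate 2 or L replicate 1, and Tm7sf2 was 1.71-fold higher. Lysosome and autophagy genes were higher in 7 and lower in 11 of 40, with 4 higher without C replicate 3, and Ctsh was 1.63-fold higher and Gabarapl1 1.67-fold lower. Adipogenic and lipid storage genes were higher in 7 and lower in 4 of 21, with 4 higher without C replicate 1 or L replicate 3. Plin4, a lipid droplet protein gene, was 5.101-fold higher. Immediate early and MAPK feedback genes were lower in 18 and higher in 8 of 37. Fosl1, an AP-1 subunit, was 5.04-fold lower and Dusp4, a phosphatase of MAP kinases, 4.93-fold lower, while Egr3 was 3.95-fold higher. Imprinted growth regulators were higher in 6 and lower in 6 of 19. Grb10, an adaptor that restrains growth, was 2.09-fold higher.

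Matrix and adhesion genes differed in composition. Of 19 elastic fibre genes, 9 were higher and 4 lower. Fbn2, a fibrillin of developing tissue, was 9.48-fold higher, while the latent TGF-beta-binding gene Ltbp1 was 3.503-fold lower. Ltbp2 measured 95.7, 95.9 and 93.2 TPM in C, 106, 97.9 and 92.1 TPM in T and 29.1, 30.5 and 37.3 TPM in L, so that T was close to C and L was low (L against T adjusted p = 4.84e-09). Of 13 small leucine-rich proteoglycan genes, 6 were higher and 4 lower, with 2 lower without C replicate 2. Ogn, osteoglycin, was 4.76-fold higher, and Prelp measured 250.1, 257 and 253 TPM in C, 227, 212 and 216 TPM in T and 84.7, 84.9 and 87.5 TPM in L. Tendon, cartilage and bone genes were higher in 5 and lower in 8 of 20, with 5 lower without C replicate 2 or L replicate 2. Matn3 was 8.92-fold higher and Col10a1, a collagen of hypertrophic cartilage, 9.91-fold lower.

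Basement membrane genes were lower in 16 and higher in 4 of 25. Lamc3 and Lama1, which encode laminin chains, were 5.91-fold and 4.56-fold lower. Integrin genes were lower in 10 and higher in 4 of 17. Itga8 measured 68.1, 63.99 and 66.9 TPM in C and 14.3, 16.6 and 13.8 TPM in L, 4.797-fold lower, and Itga4, a leukocyte integrin, was 11.96-fold lower. Cadherin genes were lower in 14 and higher in 6 of 25. Pcdh1 was 3.89-fold lower, while Cdh1 and Cdh3 were 9.84-fold and 6.68-fold higher from low levels.

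Contractile and cytoskeletal genes were lower in 24 and higher in 4 of 43. Ankrd1, a mechanical stress gene, measured 11.1, 8.899 and 9.62 TPM in C and 0.939, 1.15 and 0.91 TPM in L, 10.6-fold lower. Myocd, a coactivator of smooth muscle genes, was 3.299-fold lower, Des 2.93-fold and Myh11 2.39-fold. Pericyte and smooth muscle markers, which include these 3 genes, summed to 599 to 625 TPM in C and 429 to 444 TPM in L, and their part was not tested.

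Transporters, channels and receptors showed little net direction as groups. Solute carriers were higher in 12 and lower in 16 of 43. Slc22a8, an organic anion transporter, measured 1.62, 1.099 and 1.52 TPM in C, 1.92, 2.65 and 1.86 TPM in T and 6.88, 8.18 and 7.25 TPM in L, 4.84-fold higher in L than in C. Slc12a2 was 4.18-fold higher. Ion channels were higher in 12 and lower in 16 of 39. The potassium channel gene Kcnj10 measured 2.21, 2.52 and 2.09 TPM in C, 2.04, 2.29 and 2.89 TPM in T and 0.351, 0.286 and 0.272 TPM in L, 8.01-fold lower in L than in C and close between C and T (L against T adjusted p = 6.43e-07). Kcnj2, a related channel gene, was 4.76-fold higher. G protein-coupled receptors were higher in 21 and lower in 20 of 56. Gpr39 was 27.3-fold lower, or 17.5-fold without L replicate 3.

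Markers of other cell types moved with these differences, and their part in the results was not tested. Of 16 tested neural markers, 12 were lower and 1 higher, at a median of -1.70. Their summed level was 821 to 844 TPM in C and 346 to 363 TPM in L, and none of the 24 was at 0 in both segments. Stmn2, a neuronal protein, measured 165, 157 and 163 TPM in C and 20.6, 21.5 and 24.4 TPM in L. Several other neuronal members were near 0 in both segments and were not tested. Snap25 measured 0.303 TPM in C and 0 TPM in L, Nefl 0.259 and 0.094, Syt1 0.115 and 0.174, and Rbfox3 0.0473 and 0. The myelin genes Mag and Mog were also near 0, at 0.0797 and 0 TPM in C. Olig2, of the oligodendrocyte lineage, had 125 counts over the C libraries and 2 over the L libraries, both in L replicate 3, a ratio of 50.9 with a 95% counting interval of 13.8 to 425. Of 15 macrophage and leukocyte markers, 12 were lower and none was higher by edgeR, also with 0 at an unadjusted p under 0.05 and 0 in DESeq2 and limma, and their summed level was 214 to 228 TPM in C and 111 to 118 TPM in L. Cd3e, H2-Aa, Ly6g and S100a9 were at 0 in all C and L libraries. C1qc and H2-Ab1 were 3.81-fold and 5.14-fold lower, and Cx3cr1 was 3.18-fold lower.

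Of 15 Schwann cell markers, 11 were lower and 3 higher, with a summed level of 440.2 to 442 TPM in C and 337 to 349.7 TPM in L. Sox2 was 4.62-fold lower and Egr2 2.76-fold higher. Of 10 pericyte and smooth muscle markers, 7 were lower and 1 higher, with a summed level of 599 to 625 TPM in C and 429 to 444 TPM in L and Higd1b at 0. Mcam measured 215, 214 and 204 TPM in C and 45.7, 47.2 and 45.2 TPM in L, 4.804-fold lower. Of 8 endothelial markers, 5 were lower and 3 higher, with a summed level of 140.3 to 158 TPM in C and 129 to 132 TPM in L. Of the 19 listed, Cldn5, Robo4 and Sox17 were the 3 at 0 in all C and L libraries, and Emcn was 8.83-fold lower. Other members were detected at low levels, with Pecam1 at 0.319 TPM in C and 0.0657 TPM in L, and Plvap at 0.565 and 0.0207 TPM.

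Epithelial and mesothelial markers were higher in 3 and lower in 2 of 6, with a summed level of 160.1 to 172 TPM in C and 74.7 to 87.5 TPM in L and Cldn4 at 0. Skeletal muscle markers were higher in 3 and lower in 1 of 7, with a summed level of 19.5 to 23.2 TPM in C and 28.7 to 38.1 TPM in L and Chrng, Myf5, Myf6, Myh3 and Myog at 0. All 4 Y-linked genes tested were higher in L, and Xist was not analysed here. Eif2s3y measured 12.1, 13.4 and 16.8 TPM in C, 26.3, 35.5 and 36.7 TPM in T and 51.00, 58.9 and 45.6 TPM in L, 3.39-fold higher in L than in C. Ddx3y was 2.701-fold higher, Uty 3.47-fold and Kdm5d 3.29-fold, with a summed level of 24.03 to 36.5 TPM in C and 88.4 to 117 TPM in L. The labels give no sex, and the part of this difference in the other results was not tested.

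**Figure D5:**
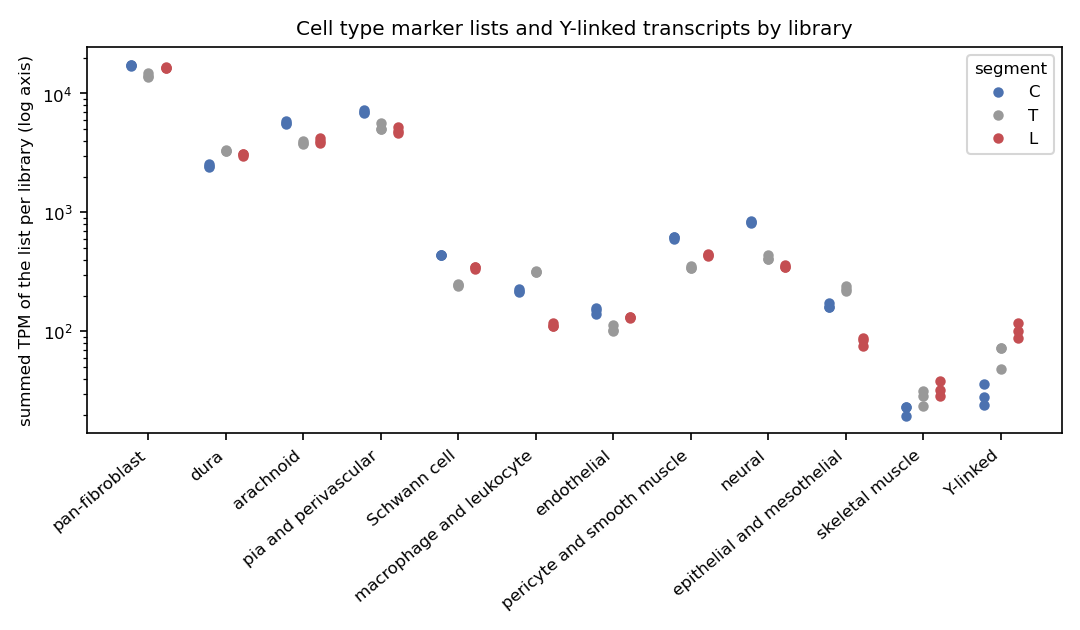
Summed TPM of each marker list in every library of C, T and L, on a log axis, with 1 point per library. Neural markers run from 821 to 844 TPM in C and from 346 to 363 TPM in L, and macrophage and leukocyte markers from 214 to 228 TPM and from 111 to 118 TPM.

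In the pathway annotation deposited with the table, 286 pathways had 20 to 400 tested members. The highest median was that of the Fanconi anemia pathway of DNA crosslink repair, with 28 of 49 members higher and 3 lower. DNA replication had 21 of 35 higher and 3 lower, and mismatch repair 13 of 22 higher and 1 lower. The lowest median was that of complement and coagulation cascades, with 22 of 41 lower and 10 higher. Next came hematopoietic cell lineage, with 25 of 41 lower and 9 higher, and systemic lupus erythematosus, with 26 of 60 lower and 9 higher. Ferroptosis, at rank 4 from the lowest median, had 21 of 38 lower and 3 higher. Cell adhesion molecules, at rank 5, had 44 of 77 lower and 24 higher. The proteasome, at rank 10, had 30 of 44 lower and 2 higher.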

How the data were processed

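RNA from 9 libraries of mouse spinal meningeal fibroblasts, 3 per segment, was prepared with a stranded total RNA kit, per the labels' protocols. The authors deposited 1 table of estimated counts and TPM per gene, and the tools named in the submitters' processing notes were HISAT2 2.2.1, StringTie 2.1.4, Trimmomatic 0.39, FastQC 0.11.9 and DESeq2 1.32.0. The notes name both GRCh38 and GRCm39, and neither annotation nor strand setting is stated in the labels, so antisense and overlapping genes cannot be told apart. In the deposited estimated counts, 92.7% of values were whole, and all were rounded to whole numbers. Library totals ran from 15652558 to 25204310, and pairs of replicates differed beyond counting noise (chi-square per degree of freedom from 3.81 to 21.1).

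Testing took genes at 1 TPM or more in 3 or more of the 9 libraries (12553 of 22013 entries), with edgeR 4.0.16 in R 4.3.3, using TMM scaling, the quasi-likelihood F test over all 9 libraries and Benjamini-Hochberg adjustment at 0.05. Standard errors were the log2 change divided by the square root of F. Where a segment had 0 counts, the fold is a bound against 3 counts over its libraries, and with 1 to 3 counts it is a ratio with an exact 95% interval. Genes were named by a rule: the 15 largest fold changes per direction with at least 5 TPM and no overlap, the 10 largest TPM differences per direction, and up to 4 members of each of 52 lists, without Hox genes. These members and lists were chosen with earlier results of these data known. limma 3.58.1, DESeq2 1.42.0 and other scalings, filters, a replicate block and leaving out single libraries were tried as alternatives. The L-3 description names another column, and its title was followed. Some genes that meet the rule are not reported here. Promoters came from RefSeq. The analysis code was tested on simulated data.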

Additional observations from a re-analysis of the deposited data

How the results depend on the processing

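Of 219 named genes, none reversed direction under 20 alternatives, though some genes had no value under some of them. Of the gene values available, 4254 kept their side of the threshold while 69 over 12 genes no longer passed it. The 12 were ribosomal and mitochondrial genes with Cdkn1c, Dlk2, Pparg and Tnnt1. The named genes were chosen largely for passing the threshold in the main fit, so keeping their direction follows in part from that choice. Counts of calls over all genes moved by over 1.5 times in 4 cases. With a filter of at least 5 TPM, 944 genes reached 2-fold, 478 of them lower in L. In limma on log2(TPM + 1), 563 were lower by at least 2-fold, and with median centring 414 were higher by at least 2-fold. Counts within some lists also moved by over 1.5 times, as given above for respiratory chain, mitochondrial and ribosomal genes. The split of calls was 3647 higher and 2185 lower in limma on log2(TPM + 1), 3541 and 2138 on log2(TPM + 0.1), 2229 and 3234 with median centring, and 3555 and 2730 with library totals. Leaving out 1 library gave 5221 to 6890 calls, 2541 to 3432 higher, 2580 to 3458 lower, 1543 to 1642 at least 2-fold, 675 to 781 at least 2-fold higher and 849 to 879 at least 2-fold lower. With a replicate block, 6084 genes were called, 3031 higher and 3053 lower, and 5937 were shared with the 6230. Same-numbered deviations of C and L correlated at -0.01, -0.07 and -0.14, and no C library correlated best with its own number. With so few libraries per segment, these correlations cannot decide whether the shared replicate numbers pair the samples, and the labels do not say. Medians of lists near 0, such as solute carrier, lysosome and IGF genes, changed sign with scaling. With the filter of 5 TPM, that of Wnt genes went from -0.10 to 0.13 and that of homeobox factors from -0.42 to 0.02. Depth limits genes with few counts, given as ratios with intervals.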

Other observations

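The annotation deposited with the table groups genes by biological process. Among 486 processes of 20 to 120 tested members, the highest median log2 change was that of mitotic sister chromatid segregation, with 21 of 28 members higher in L and 2 lower, and the next that of mitotic spindle assembly checkpoint signaling, with 15 of 22 higher and 1 lower. The lowest was actin filament bundle assembly, with 12 of 22 lower and 5 higher, followed by actomyosin structure organization, with 14 of 22 lower and 4 higher, and cellular oxidant detoxification, with 23 of 39 lower and 7 higher. Synapse assembly had 11 of 22 lower and 4 higher. Cellular response to interferon-beta, at rank 7 from the highest median, had 10 of 22 higher and 3 lower. These are counts of calls and medians, with no test of a process as a group.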
